A study of Mus musculus with 4 samples.

Results

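The miR-741, miR-742 and miR-743 family described here is made up of 6 names on a mouse miRNA array: mmu-miR-741, mmu-miR-742, mmu-miR-742*, mmu-miR-743a, mmu-miR-743b-3p and mmu-miR-743b-5p, given below without the species prefix. These 6 were taken by name from the 567 mouse miRNAs on the array, and each was detected on at least 1 of the 4 arrays. The family was selected on its total signals and detection in all 3 groups of these same arrays, so its levels and differences are a description and no test was run on them. Purified Sertoli cells from adult B6129 males aged 5 to 7 weeks were profiled after sham treatment with an implanted tube and a saline injection (Sham, 1 array), after the antiandrogen flutamide by subcutaneous implant with the GnRH antagonist acyline by injection (Flut+Acy, 2 arrays), and after the same pair of drugs with a testosterone implant (Flut+Acy+T, 1 array). The cells were pooled over mice before RNA extraction, from 5 to 7 animals by the methods and from 6 for each array group by a legend. The labels number the Flut+Acy arrays but do not say whether they came from separate pools, so the gap between them may be technical only. The comparisons address which miRNAs of the Sertoli cell respond to androgen.

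Sertoli cells are the somatic nurse cells of the seminiferous tubule and the main testicular cell in which testosterone acts on spermatogenesis through the androgen receptor. A miRNA gene is transcribed as a hairpin that Drosha and Dicer cut to a duplex of a 5p and a 3p strand. The strand kept in an Argonaute protein pairs with target mRNAs, mostly through its seed, and the strand with a star in older names was taken to be the less abundant one. The genes of this family belong to a rapidly evolving group of X-linked miRNA genes that is known for expression in the testis.

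The mature sequences are printed because they show which members could share targets and which could share array probes. They are RefSeq's for GRCm38.p6, 5′ to 3′, with the seed (bases 2 to 8) in capitals, and all 6 array names were matched to an entry.
miR-743a: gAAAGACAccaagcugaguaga
miR-743b-3p: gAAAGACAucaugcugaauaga
miR-742: gAAAGCCAccaugcuggguaaa
miR-741: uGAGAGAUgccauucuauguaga
miR-742*: uACUCACAugguugcuaauca
miR-743b-5p: uGUUCAGAcugguguccauca

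Among the family, the seed AAAGACA was carried by miR-743a and miR-743b-3p, and by no other mouse miRNA of the 1679 in RefSeq. Counted from 1 at the 5′ end, the substitutions from miR-743a to miR-743b-3p were C9U, A12U and G18A, so that 19 of 22 bases (86.4%) were identical. miR-742 matched miR-743a at 18 of 22 bases, with C6A, U12A, G17A and A21G, and at 6 of the 7 seed bases. miR-741 had a seed of its own and matched miR-743a, position by position, at 4 of 22 bases. That count makes no allowance for length, which is 23 bases for miR-741 and 22 for miR-743a. With gaps allowed, 8 single-base changes separated miR-741 from miR-743a. The same count was 3 between miR-743a and miR-743b-3p and 15 between miR-743a and miR-743b-5p, so miR-741 was closer to miR-743a than the ungapped match shows. On the other arm, miR-742* and miR-743b-5p matched at 12 of 21 bases and had different seeds. The seed of miR-743b-5p was shared with miR-6948-5p, and those of miR-741, miR-742 and miR-742* with no other entry. miR-741, miR-743a and miR-743b-3p ended in UAGA, as did 14 of the 1679 RefSeq mature sequences (0.834%).

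All 6 came from the minus strand of chromosome X, where the scanner files place the probed stretches in mm9 coordinates. miR-743a lay at chrX:64029935-64029950, miR-743b-3p at chrX:64030441-64030459 and miR-743b-5p at chrX:64030477-64030493. miR-742 lay at chrX:64033551-64033566, miR-742* at chrX:64033587-64033606 and miR-741 at chrX:64049984-64050003. The genes Mir743 and Mir743b were thus about 506 bases apart, and Mir741 stood 20.0 kb from Mir743. In the RefSeq annotation no other gene overlapped Mir741, Mir742, Mir743 or Mir743b.

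The value for each miRNA was the scanner software's total signal, a linear intensity in arbitrary units after background subtraction, which can fall below 0. The summed positive signal of the mouse miRNAs came to 57940 units for Sham, to 139602 and 161460 for the Flut+Acy pair and to 201919 for Flut+Acy+T. The Flut+Acy+T array stood apart from the others. Its 672 negative-control spots had an SD of 1326 units, against 2.72 to 7.45 on the other arrays, and its dimmest detected miRNA was at 238 units, against 0.766 to 2.67. It detected 102 mouse miRNAs, compared with 193 on Sham and 275 and 270 on Flut+Acy. The arrays measured only pooled RNA, in which fewer cells of a type and less RNA per cell cannot be told apart.

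The 3p strands miR-741, miR-743a and miR-743b-3p were at 34.7 units or less on Sham and at 784 units or more on both Flut+Acy arrays. miR-741 gave a total signal of 34.7 ± 3.84 units on Sham, 1118 ± 93.5 and 1175 ± 96.3 units for the Flut+Acy pair and 437 ± 129 units with testosterone added, where ± is the software's error for 1 array. It was the only member detected on all 4 arrays, with Sham lowest, the Flut+Acy pair highest and Flut+Acy+T between them. On Sham miR-743a gave 25.6 ± 3.34 units, and the Flut+Acy pair gave 784 ± 66.9 and 904 ± 75.9. Its Flut+Acy+T value was 222 ± 125 units, and there it was not detected. Its paralog miR-743b-3p gave 21.7 ± 2.98, 808 ± 61.4, 849 ± 63.9 and 180 ± 124 units in the same order, and was likewise not detected on Flut+Acy+T. For these 3 miRNAs the error ranges of Sham and Flut+Acy did not overlap, and those of Flut+Acy+T did not reach the Flut+Acy values.

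miR-742, its partner miR-742* and miR-743b-5p were detected on the Flut+Acy arrays alone. The Flut+Acy pair gave 29.6 ± 3.50 and 33.3 ± 4.26 units for miR-742, against -2.63 on Sham and -178 on Flut+Acy+T. For miR-742* the pair gave 56.5 ± 4.34 and 63.7 ± 5.15 units, against -0.659 on Sham and -69.4 on Flut+Acy+T. miR-743b-5p was dimmest, with 5.95 ± 1.99 and 7.05 ± 2.84 units on the pair, -1.89 on Sham and -126 on Flut+Acy+T. The Flut+Acy+T values of these 3 carried errors of 87.2 units, larger than any signal they gave on Flut+Acy, so that array could not have shown a level like that of Flut+Acy. In all, 3 of the 6 members were detected on Sham and 6 on each Flut+Acy array, where 46.4% of the 567 mouse miRNAs were detected on both. With testosterone added 1 was detected, and it was the one seen on all 4 arrays, as 13.4% of the 567 were.

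**Figure D1:**
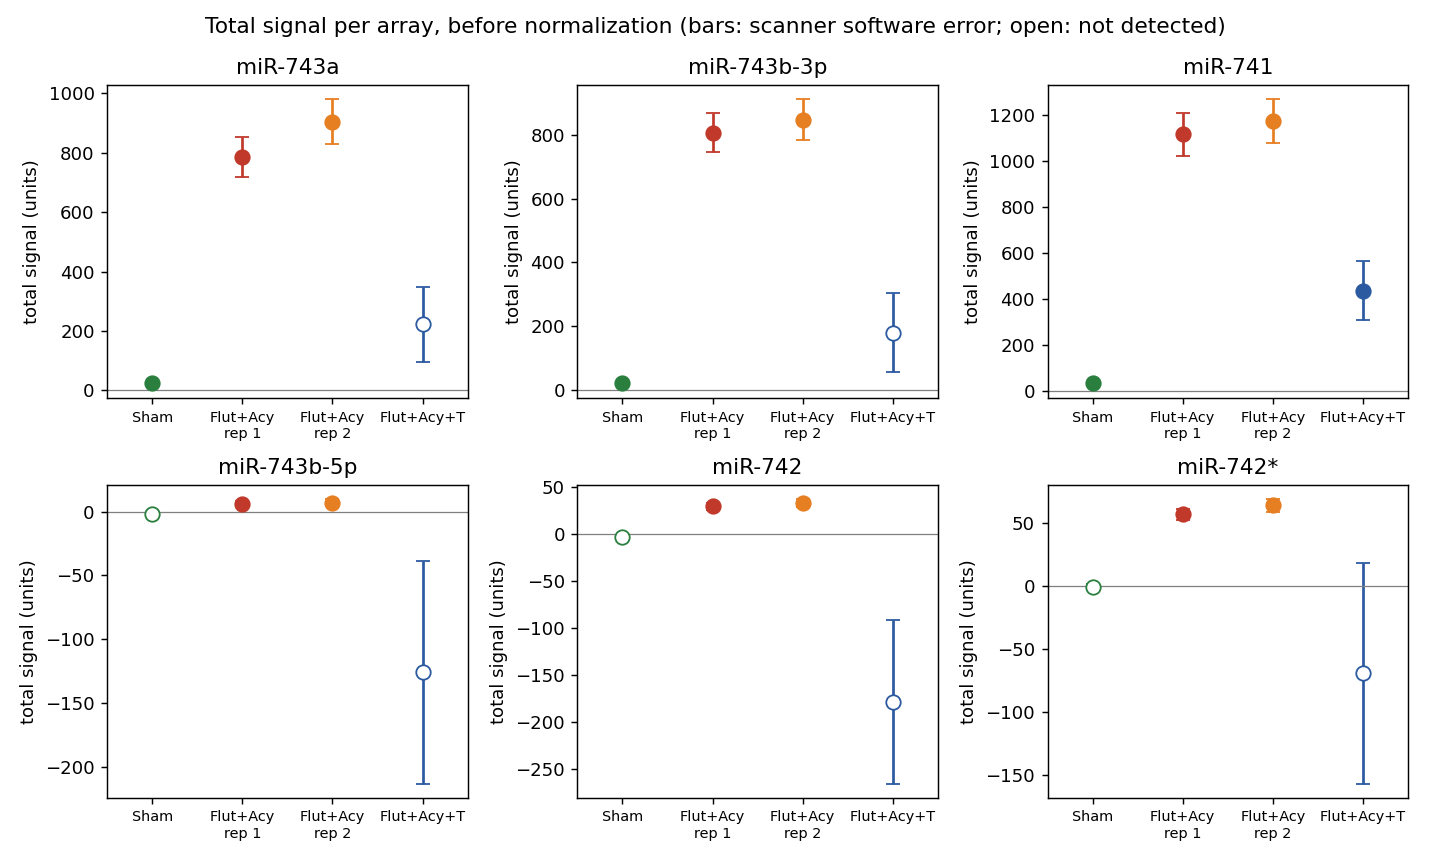
Total signal in arbitrary units (linear axes, before normalization) of each member on the 4 arrays, 1 point per array; bars are the scanner software's error, and open points were not detected. miR-741, miR-743a and miR-743b-3p lie between 21.7 and 34.7 units on Sham and between 784 and 1175 on Flut+Acy, while the bars on Flut+Acy+T span at least 87.2 units either way.

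Loss of detection on Flut+Acy+T was common over the whole array. Of the 189 mouse miRNAs that Sham and both Flut+Acy arrays detected, 59.8% were not detected on Flut+Acy+T, and among the members miR-743a and miR-743b-3p fell in this class while miR-741 did not. Of the 74 detected on both Flut+Acy arrays and not on Sham, 90.5% were not detected on Flut+Acy+T, as were miR-742, miR-742* and miR-743b-5p. The missing calls on Flut+Acy+T are therefore near the array's background and are no result about the family.

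For comparisons between arrays the total signals were quantile-normalized, floored at 5.46 units and put on a log2 scale. Flut+Acy was at least 2-fold above Sham for 5 of the 6 members, against 22.6% of the 283 mouse miRNAs detected on Sham or Flut+Acy. The median log2 difference was 2.53 over the members and -0.18 over those 283. Because the members were chosen by this contrast among others, nothing is read from either value.

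Relative to Sham, miR-741 was 5.57-fold higher in Flut+Acy, a log2 difference of 2.48. The same difference was 2.36 (5.12-fold) for miR-743a and 2.58 (5.99-fold) for miR-743b-3p. The paralogs that share a seed thus differed by 0.23 in their log2 difference, and miR-741, which does not share it, was 0.10 from miR-743b-3p. These gaps were small beside the differences themselves. Over the 263 miRNAs detected on both Flut+Acy arrays, those arrays were a median of 0.090 apart on the log2 scale, and 0.28 at the 90th percentile. miR-741 had the same normalized value on both because it held rank 35 on each, which leaves its SD at 0. miR-743a and miR-743b-3p exchanged ranks 49 and 51 between the Flut+Acy arrays, and each had a log2 level of 9.46 ± 0.040 there (SD, n = 2). Sham had no replicate against which the differences could be set.

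For the members not detected on Sham, Flut+Acy was set against the dimmest normalized signal among the miRNAs detected on Sham. In Flut+Acy, miR-742 was 2.06-fold above that signal and miR-742* 3.51-fold. This nominal bound holds for quantile normalization only and is no sure minimum. On Sham, miR-471 was not detected at 7.59 units, although the dimmest detected miRNA was at 2.67. Both strands of the miR-742 hairpin thus passed the nominal bound, and their fitted log2 differences, 3.16 and 3.92, rest on the floor. miR-743b-5p had a log2 difference of 0.20, lay at the floor on Flut+Acy replicate 2, and allows no bound above 1. Within the miR-743b hairpin, the 3p strand had a log2 difference of 2.58, while that of the 5p strand depended on the floor. The gap between the strands was 2.38 as processed here and 0.64 with a floor of 1 unit. Whether the strands differed in their response thus cannot be told from these values. Since the probes of the strands differ, their signals give no ratio of one strand to the other.

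In linear signal before normalization, Flut+Acy (mean of both arrays) was 33.1-fold over Sham for miR-741, 32.9-fold for miR-743a and 38.3-fold for miR-743b-3p. The summed signal of the array was itself 2.41 and 2.79 times that of Sham on the Flut+Acy arrays, and the median detected miRNA was 1.75 higher on the log2 scale without normalization. The members' share of the summed signal was 2.01% and 1.88% on the Flut+Acy pair, against 0.141% on Sham and 0.415% on Flut+Acy+T.

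In Flut+Acy+T, 5 of the 6 members were at least 2-fold below Flut+Acy, against 50.8% of the 297 mouse miRNAs detected on these arrays. This comparison shares the Flut+Acy arrays with the one against Sham. miR-741, detected on both sides, was 4.54-fold lower in Flut+Acy+T, a log2 difference of -2.18. That value was 2.62-fold without normalization and 8.11-fold with scaling to the 75th percentile of all mouse miRNAs, and 1 of the 20 miR-741 spots on Flut+Acy+T was well above background. With quantile normalization, the Flut+Acy signals of miR-743a and miR-743b-3p were 6.82-fold above the dimmest miRNA detected on Flut+Acy+T. This value is equal for both because they held the same pair of ranks on Flut+Acy. It is no sure minimum, because that array left brighter miRNAs undetected, such as miR-449a at 362 units against 238 for the dimmest detected. Over 10 other ways of processing, their fitted log2 differences ran from -3.8 to -1.8 and from -4.6 to -2.0. Those rest on Flut+Acy+T values that were not detected, and the 6.82-fold value holds for quantile normalization only. For miR-742 and miR-742* the dimmest miRNA detected on Flut+Acy+T lay above their Flut+Acy signal after normalization. No bound can be given for them, although their fitted log2 differences were -3.16 and -3.92. The median over the members was -3.03, beside -1.11 over all 297.

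Between Flut+Acy+T and Sham all 6 members were within 2-fold, against 37.6% of the 218 miRNAs detected on either array, but 3 of the 6 were detected on neither array and sat at the floor on both. miR-741 was 0.29 higher in Flut+Acy+T on the log2 scale with quantile normalization, 1.78 higher with scaling to the 75th percentile of the miRNAs detected on all 4 arrays, and at -0.15 when that percentile was taken over all mouse miRNAs. miR-743a and miR-743b-3p were at -0.54 and -0.67 on the log2 scale with quantile normalization, and the sign turned with the percentile over detected miRNAs (1.24 and 1.18), with scaling to the summed signal (1.31 and 1.25) and without normalization (3.11 and 3.05). With 1 array on each side, whether these members returned to the Sham level cannot be settled from these values.

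Each member was read by 2 to 4 probes that all reach the 3′ end of the miRNA and differ in how many of its bases they cover, with 120 spots per array over the 18 probes. The probes of miR-743a cover bases 7 to 22 or 8 to 22, and those of miR-743b-3p bases 4 to 22 or 5 to 22, so all 3 bases at which the paralogs differ lie within the stretches probed. Whether each probe reads only its own paralog was not tested.

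For the strands detected on Sham, both probes of each miRNA were higher on Flut+Acy than on Sham, with no overlap of spots. The 20-base probe of miR-741 had a mean spot signal of 45.9 ± 9.40 units on Sham (SD over 10 spots), 1351 ± 275 and 1382 ± 72.7 on the Flut+Acy pair and 574 ± 65.8 with testosterone added. The 16-base probe of miR-743a gave 37.0 ± 7.67, 1079 ± 210, 1100 ± 42.2 and 354 ± 34.4 units in the order Sham, Flut+Acy pair, Flut+Acy+T. The 19-base probe of miR-743b-3p gave 22.5 ± 4.07, 833 ± 129, 857 ± 43.3 and 224 ± 36.6 units in that order. On each of these longer probes the spots of Sham lay below all those of Flut+Acy, with Flut+Acy+T between. The shorter probes did not all place Flut+Acy+T there. The 15-base probe of miR-743a was at -19.2 ± 35.4 units on that array, below its 5.18 ± 1.24 on Sham. The 19-base probe of miR-741 was at 104 ± 77.4 units, and its spots overlapped those of Flut+Acy replicate 1. The mean spots of the 6 probes of these miRNAs were 29.4 to 43.1 times as high on Flut+Acy as on Sham, before normalization. On Flut+Acy+T, the negative-control spots had a 95th percentile of 3100 units, above the Flut+Acy+T mean of every one of these probes.

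For the other 3 strands the signal came from the longest probes. Only the 16-base probe of miR-742 had all 5 spots well above background on both Flut+Acy arrays, with 89.3 ± 11.4 and 96.6 ± 5.75 units, against 0.504 ± 1.47 on Sham. The 19-base and 20-base probes of miR-742* did so, the latter with 104 ± 8.03 and 112 ± 6.29 units against 0.138 ± 0.868 on Sham. miR-743b-5p was seen by its 17-base probe at 21.2 ± 6.71 and 22.0 ± 4.22 units, against -0.568 ± 1.57 on Sham. Its 3 shorter probes averaged between -4.19 and 2.01 units on Flut+Acy, which leaves the detection of this strand to 1 probe. All Sham spots were below all spots of Flut+Acy replicate 1 for 12 of the 18 probes, and likewise for replicate 2. Spots on 1 array are technical repeats and measure only the precision of that array.

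**Figure D2:**
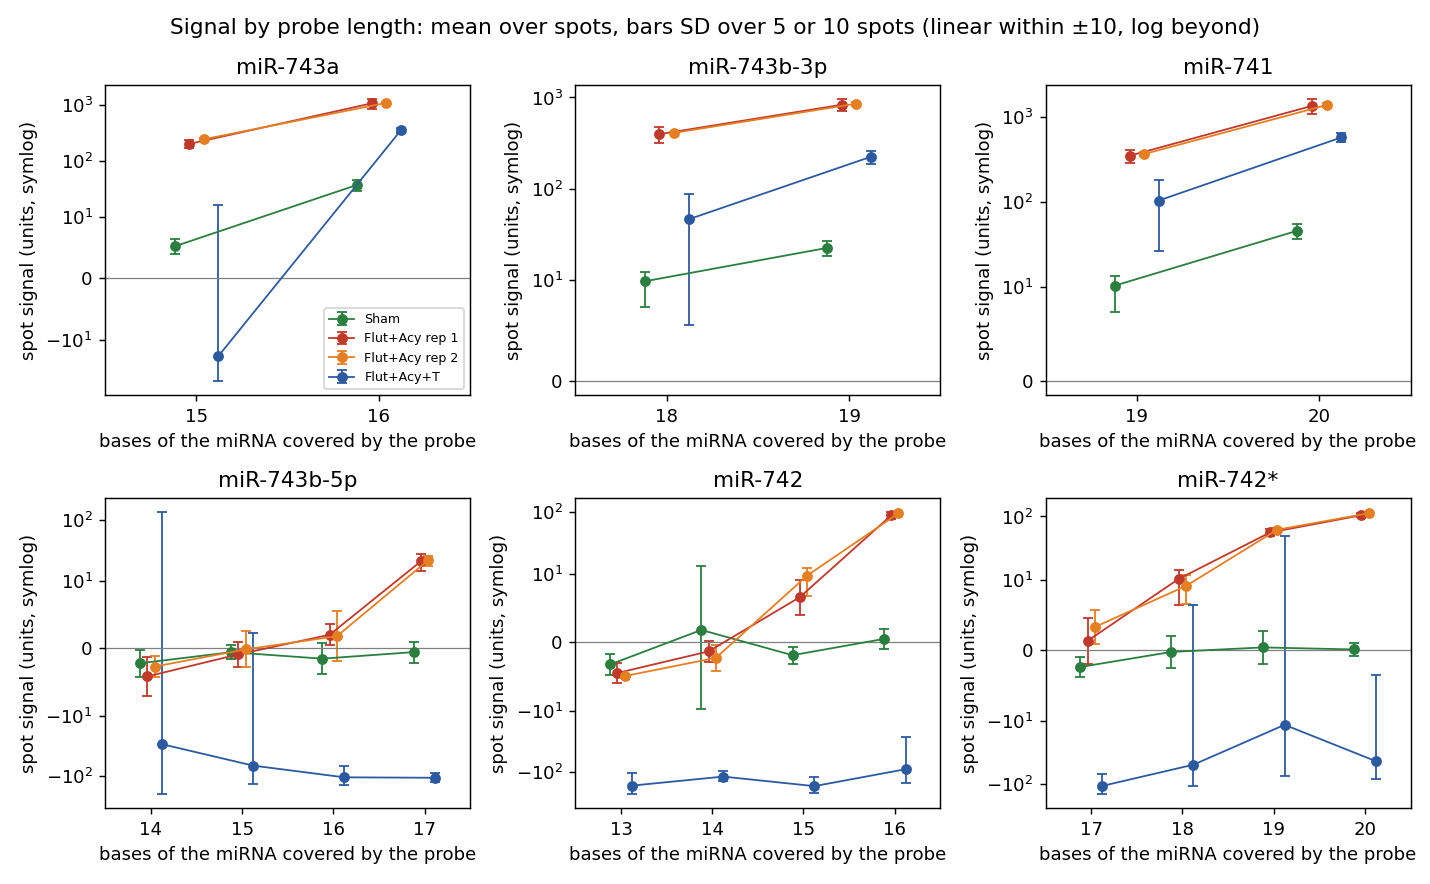
Mean spot signal in arbitrary units (symlog axis, linear within 10 units of 0) against the number of miRNA bases each probe covers, for the 4 arrays; bars are the SD over 5 or 10 spots. Both probes of miR-741, miR-743a and miR-743b-3p are higher on Flut+Acy than on Sham, while miR-743b-5p rises above Sham with its 17-base probe at 21.2 and 22.0 units.

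The members lie in a chain of 25 miRNAs on the array, each under 100 kb from the next, at chrX:64029935-64092288 (mm9). Of the 19 neighbours, Sham detected 7, the Flut+Acy pair 18 and 16, and Flut+Acy+T 2. Flut+Acy was at least 2-fold above Sham for 14 of the 19 neighbours and at least 2-fold below for none, against 22.6% and 16.6% of all 283 miRNAs, and their median log2 difference was 2.14. Of the 14, Sham detected 6, so the differences of the other 8 rest on Sham values that were not detected. In Flut+Acy+T, 14 neighbours were at least 2-fold below Flut+Acy, against 50.8% of all, and 1, miR-463*, was at least 2-fold above, against 17.5%. Flut+Acy+T did not detect miR-463*, nor 12 of those 14, so these counts rest largely on values that were not detected there. The neighbours come from the same arrays, and were not set against the members by a test.

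The nearest neighbour of the miR-743 and miR-742 hairpins, miR-883a-3p, had a log2 difference of 2.13 between Flut+Acy and Sham. On the sides of miR-741 lay miR-471 and miR-463, neither detected on Sham. The fitted log2 difference of miR-471 was 2.27 and rests on its undetected Sham value of 7.59 units. In Flut+Acy, miR-463 was 8.04-fold above the dimmest miRNA detected on Sham. The largest fitted log2 differences were those of miR-463 (4.36), miR-878-5p (4.23), miR-465b-5p (3.93) and miR-881 (3.79). None of these was detected on Sham, so their order is not measured. Set against the dimmest miRNA detected on Sham, Flut+Acy was 4.35-fold higher for miR-878-5p, 3.53-fold for miR-465b-5p and 6.20-fold for miR-881. At the other end, the 4 differences of 0 belonged to miR-465a-5p, miR-465c-5p, miR-881* and miR-883b-5p, all at the floor in both groups. The remaining neighbour under the 2-fold limit, miR-878-3p, was detected on each of these arrays and stood at 0.70.

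**Figure D3:**
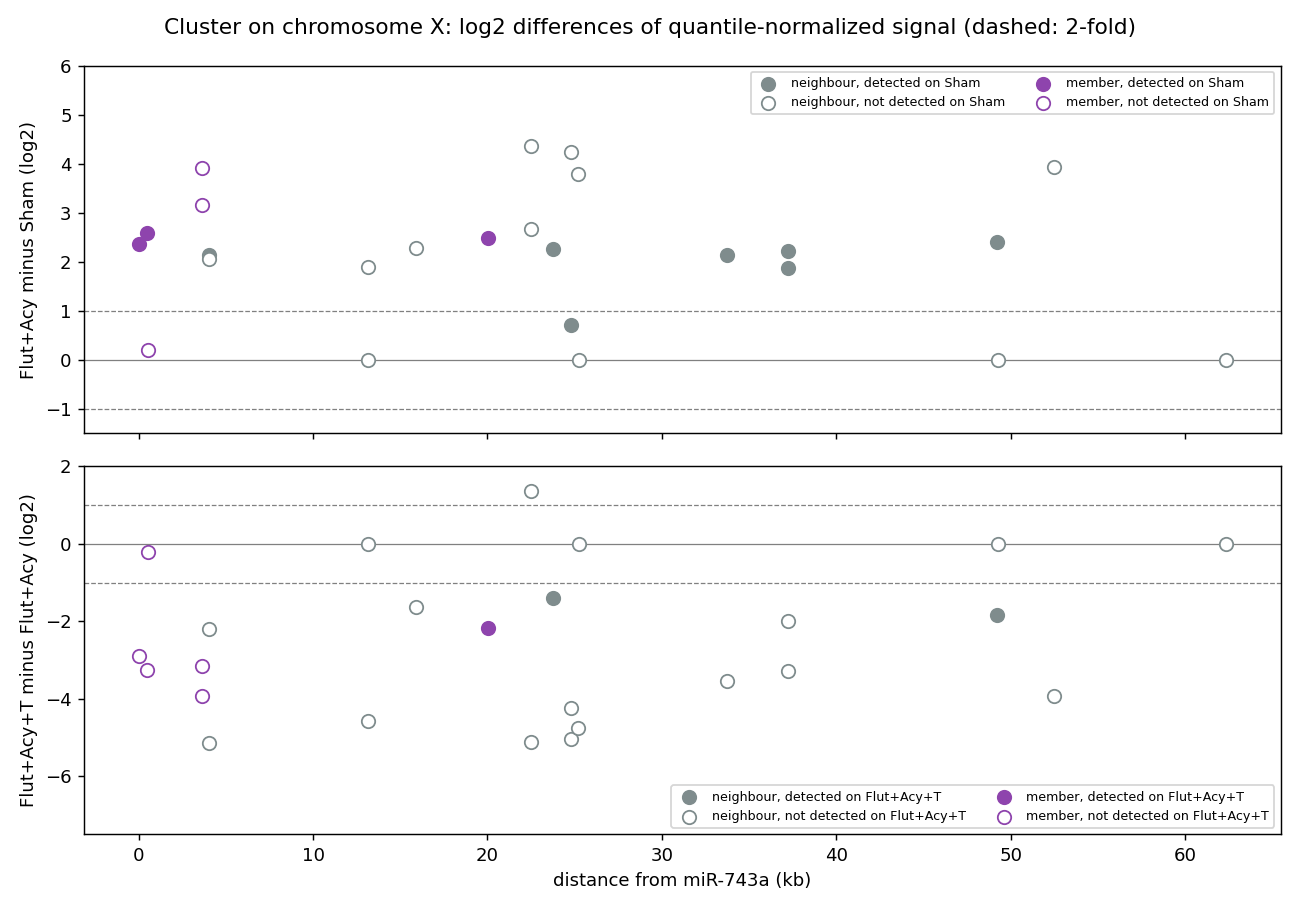
Log2 difference of quantile-normalized signal between Flut+Acy and Sham (top) and between Flut+Acy+T and Flut+Acy (bottom) against distance from miR-743a in kb, for the 6 members and 19 neighbours; filled points were detected on Sham (top) or Flut+Acy+T (bottom), and dashed lines mark 2-fold. In the top panel 5 members and 14 neighbours lie above the upper line and none below the lower one.

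Outside the members, the array profiles most like theirs were found among 292 other miRNAs detected on at least 1 array, by the Euclidean distance of mean-centred log2 values over the 4 arrays. In order of distance these were miR-297c (0.137), miR-106a (0.221), miR-17 (0.264), miR-203 (0.342) and miR-202-5p (0.360), beside a median distance of 2.76. None of the 5 lies in the X-linked cluster. None of them was detected on Sham or Flut+Acy+T, so their likeness rests in part on values that were not measured there.

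Markers of other cells were read beside these values. The germ cell list (miR-34b, miR-34c and miR-449 strands, which are abundant in meiotic and haploid germ cells) summed to 477, 7183, 7463 and 3472 units in the order Sham, Flut+Acy pair, Flut+Acy+T, or 0.824%, 5.15%, 4.62% and 1.72% of the summed signal. It held 3, 5, 5 and 3 detected miRNAs of 7. The 5 detected were all higher in Flut+Acy by 2-fold or more, against 22.6% of the 283 miRNAs, with a median log2 difference of 2.02. In Flut+Acy+T, 4 of these 5 were at least 2-fold below Flut+Acy, against 50.8% of the 297 miRNAs. Of those 4, miR-34c* and miR-449a were not detected on Flut+Acy+T. The remaining 1, miR-34b-3p, was at least 2-fold above, against 17.5% of the 297. It was detected there at 548 units, against 40.3 and 51.8 on the Flut+Acy pair, so the list did not move as 1. Of this list, miR-34b-5p and miR-34c were at 294 and 141 units on Sham, and both were detected on every array. The paper lists both, with miR-34c* and miR-449a, among the miRNAs altered by Flut+Acy in its purified Sertoli cells. The part of germ cells in the values of this list and of the miR-741, miR-742 and miR-743 family was not tested.

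The Sertoli and gonadal soma list, miR-202-3p and miR-202-5p, summed to 104, 334, 366 and 8.25 units in the same order. Neither strand of this somatic marker was detected on Flut+Acy+T, where missing calls were common. By its calls elsewhere, miR-202-3p belongs to the class that lost 59.8% there, and miR-202-5p to the class that lost 90.5%. The dimmest miRNA detected there was at 238 units. On the Flut+Acy pair miR-202-5p was at 21.5 and 27.0 units, and miR-202-3p at 312 and 339. The spermatogonial and pluripotent list of 12 summed to 27.2, 189, 262 and 2643 units, with 1, 7, 7 and 1 detected. The peritubular and smooth muscle list of 5 was at 1785, 2580, 3091 and 4488 units, with 5, 5, 5 and 3 detected. After normalization 4 of the 5 lay below Sham by 2-fold or more in Flut+Acy, against 16.6% of the 283 miRNAs. The endothelial pair summed to 649, 1986, 2155 and 4013 units, with 2, 2, 2 and 1 detected. The 6 blood miRNAs summed to 236, 382, 432 and 911 units, with 3, 5, 4 and 0 detected. Their sum on Flut+Acy+T thus holds no detected miRNA. Of the 6 lists, the germ cell list alone had, like the members, a share that on each Flut+Acy array exceeded both those of Sham and Flut+Acy+T by 2-fold or more. That list's sum came mostly from miR-34b-5p and miR-34c, at 3940 and 2339 units on Flut+Acy replicate 1. The origin of this likeness was not tested.

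**Figure D4:**
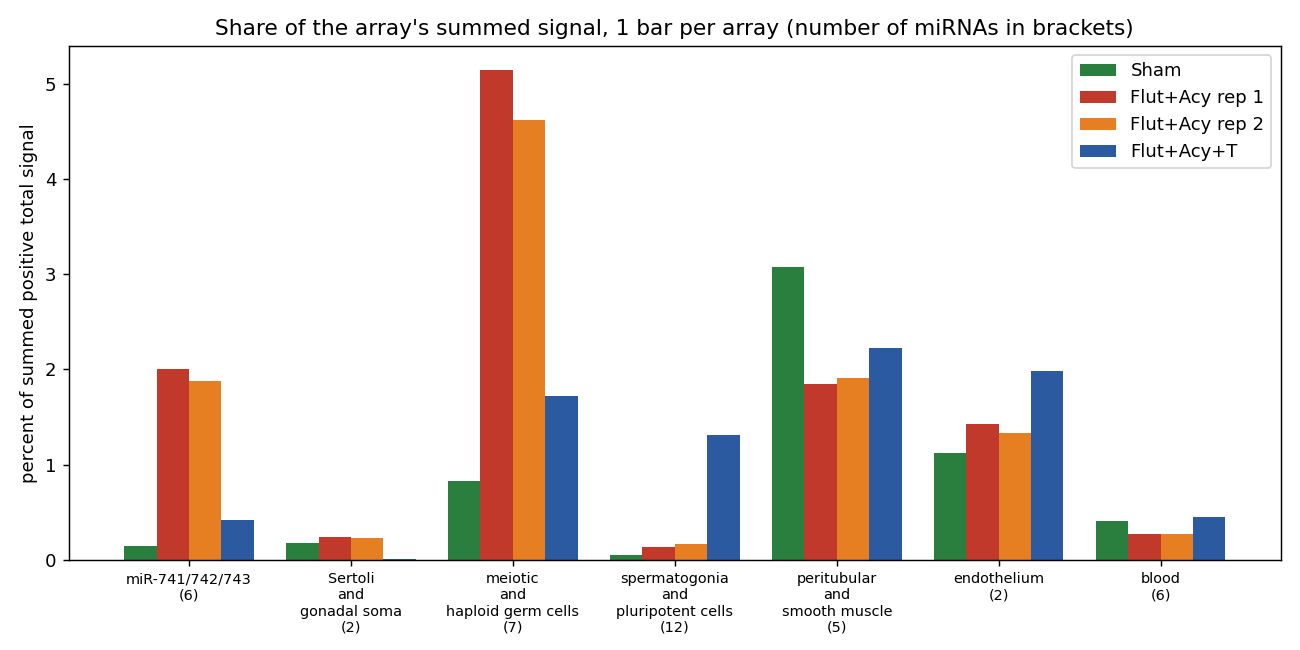
Share of the summed positive total signal (percent, linear axis from 0) taken by the members and by 6 lists of cell type miRNAs, 1 bar per array, with no error bars because each bar is 1 array. The members stand at 0.141% on Sham and 2.01% and 1.88% on Flut+Acy, and the germ cell list at 0.824% and 5.15% and 4.62%.

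The differences were recomputed under 10 other ways of processing the arrays. For miR-741, miR-743a and miR-743b-3p the log2 difference between Flut+Acy and Sham stayed above 1 in each, between 1.86 and 5.05, 1.69 and 5.04, and 1.73 and 5.26. For miR-742 and miR-742* it ran from 0.43 to 5.61 and from 0.64 to 6.37, and was under 1 after normexp correction for both. miR-742 was also at 0.99 without Flut+Acy replicate 1, when the floor is set by 3 arrays and higher. For miR-743b-5p the difference ran from 0 to 1.94, and was largest with a floor of 1 unit.

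**Figure D5:**
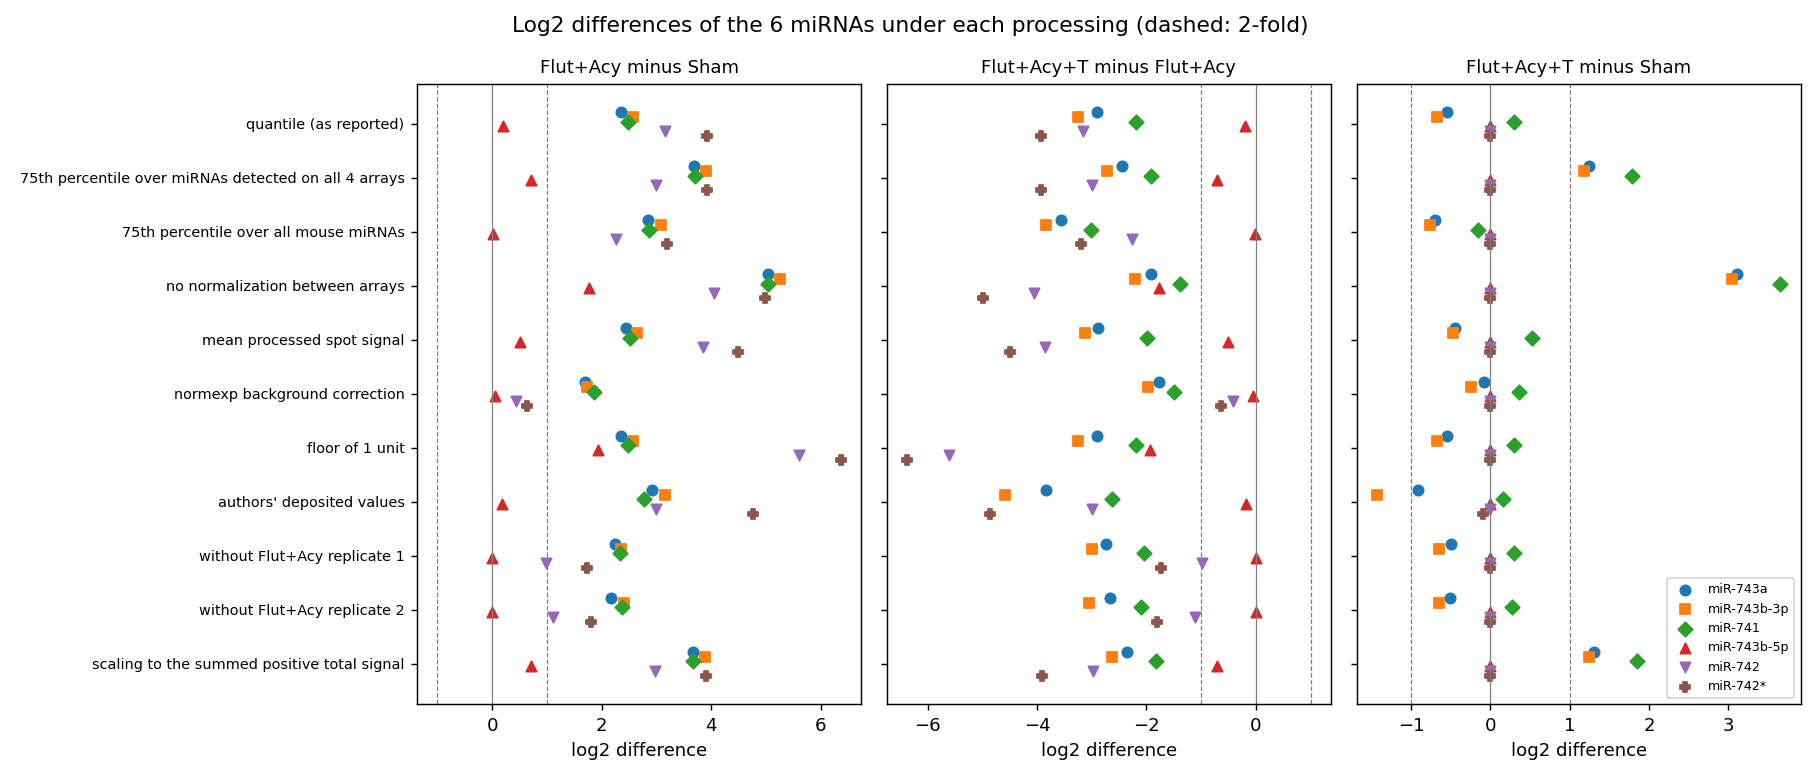
Log2 difference of each member (x axis) in the 3 comparisons under each processing (rows); dashed lines mark 2-fold, and each symbol is 1 member. In the left panel miR-741, miR-743a and miR-743b-3p are above 1 in every row, and in the right panel their side of 0 varies.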

How the data were processed

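Total RNA of purified Sertoli cells was hybridised to 4 single-colour Agilent mouse miRNA arrays on 1 slide. The authors deposited scanner output from Feature Extraction 9.5.3.1, with intensities on a linear scale that were background-subtracted but not normalized between arrays, and a table of quantile-normalized intensities. Members, marker lists and comparisons were chosen with earlier results of these data known. Total gene signals of 567 mouse miRNAs were quantile-normalized on the linear scale and floored at 5.46 units, taking each array's dimmest detected miRNA and the median of these. They were then put on a log2 scale, and a difference was called at 2-fold. Named were all members, the nearest and most extreme cluster neighbours, the 5 most similar profiles and the marker lists. No test was made, since the members were chosen on these values and 2 groups have 1 array. The number of arrays limits the precision. Alternatives were scaling to the 75th percentile (2 ways), scaling to the summed signal (added after the data were seen), no normalization, mean spot signals, normexp correction (limma 3.58.1, offset 50), a floor of 1 unit, other detection filters, the deposited table, and leaving out each Flut+Acy array. The contrast step was run on simulated data in which every miRNA was detected and no background was added. That run could not check the floor or the background of the Flut+Acy+T array. Sequences are RefSeq's (GRCm38.p6) and coordinates the scanner files' (mm9). Python 3.11.15 and R 4.3.3 were used.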

Additional observations from a re-analysis of the deposited data

How the results depend on the processing

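No paired analysis was possible because only Flut+Acy has more than 1 array. Under normexp correction, 3 members passed 2-fold upward in Flut+Acy, 3 downward in Flut+Acy+T, and 6 neighbours upward. The members within 2-fold of Sham on Flut+Acy+T fell to 3 with 75th percentile scaling over shared detected miRNAs (those seen on all 4 arrays), without normalization and with sum scaling. The other counts of members stayed within 1.5 times those reported, and no called value changed sign.

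The median log2 difference of members, Flut+Acy minus Sham, was 3.69 with 75th percentile scaling over shared detected miRNAs, 2.86 over all mouse miRNAs, 5.01 without normalization, 2.58 with mean spot signals, 1.16 with normexp, 2.96 in the authors' deposited values and 3.67 with sum scaling. For Flut+Acy+T minus Flut+Acy it was -2.59, -3.10, -2.07, -3.00, -1.07, -3.42 and -2.49 in the same order, and -3.08 with a floor of 1 unit. For Flut+Acy+T minus Sham it was 0.59, -0.076 and 1.53 in the first 3 of these settings, -0.043 in the deposited values and 0.63 with sum scaling. Without 1 Flut+Acy array the median ran from 1.99 to 1.99 against Sham and from -1.95 to -1.89 for Flut+Acy+T minus Flut+Acy, and the floor then rose to 27.2 and 25.9 units. The floor rule gave a value below 0 for the deposited table, so 1 unit was used there.

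Over all miRNAs, the count past 2-fold upward in Flut+Acy was 64 as reported, 100 with 75th percentile scaling over shared detected miRNAs, 212 without normalization, 18 with normexp, 98 with sum scaling and 26 when detection on every array was required. The count past 2-fold downward in Flut+Acy+T was 151 as reported, 29 with normexp and 11 with detection on every array. The median of all detected miRNAs, Flut+Acy minus Sham, moved from -0.18 to 0.40, 0.37 and 1.75 with 75th percentile scaling over shared detected miRNAs, sum scaling and no normalization. The Flut+Acy+T array's background limits what it could show of every member, miR-741 included. The cause of these shifts was not tested.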
